A study of Mus musculus with 16 samples.

Results

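Potassium channels let potassium leave or enter the cell and so set the resting potential and end each cardiac action potential. Their genes carry symbols that start with *Kcn*, for pore-forming subunits of the voltage-gated, inward rectifier, two-pore and calcium- or sodium-activated families, and for accessory subunits that change how a pore opens or reaches the membrane. In the hearts studied here, 95 probe sets named one gene with such a symbol, out of 21640 probe sets that named one gene and 34760 in all. They stood for 92 genes, of which *Kcna2*, *Kcnh8* and *Kcnma1* had 2 probe sets each. All 95 symbols were found by their Entrez identifier in the RefSeq gene table. The voltage-gated family had 37 probe sets, accessory subunits 17, inward rectifiers 15, two-pore channels 14 and calcium- or sodium-activated channels 9. The other 3 were the antisense transcripts *Kcnd3os*, *Kcnmb4os1* and *Kcnmb4os2*, which share the symbol but encode no channel.

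RNA of whole hearts from C57BL/6 embryos was put on Affymetrix Mouse Gene 1.0 ST arrays, 1 heart to an array, for 4 mutant and 4 control hearts at E11.5 and as many at E13.5. Mutant hearts were Chd7fl/fl;Mesp1-Cre, in which Cre under *Mesp1* removes the floxed *Chd7* gene, which encodes a chromatin remodeller, from the anterior mesoderm and the heart cells it gives rise to. Neural crest, nerves and other cells outside that lineage keep *Chd7*. Control hearts are called WT by the labels and Chd7+/+;Mesp1-Cre by the study, but the cross that the labels name (Chd7fl/+;Mesp1-Cre with Chd7fl/fl) cannot give Chd7+/+ embryos, so the control genotype is not settled here. No treatment was given. Sex, litter and array dates are not given in the labels, and p values therefore measure the spread between these hearts, whatever its source. The mean of 3 Y-linked genes was above the dim level defined below in 2 of 4 mutant and 4 of 4 control hearts at E11.5, and in 1 of 4 mutant and 2 of 4 control hearts at E13.5, so that Y-linked signal was not balanced between the groups.

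Values are log2 RMA values, in which 1 unit is a doubling of signal, and log2 FC is a difference of group means. A probe set was called when limma gave an adjusted p under 0.05, over all probe sets, and a log2 FC over 0.5 in size. The number of arrays limits the precision. The probe set for *Chd7* with the highest mean had a log2 FC of -1.29 in mutant hearts at E11.5 (adjusted p in limma 0.00132) and of -1.08 at E13.5 (0.0209). All 8 cardiomyocyte markers were measured, none was dim and none was called by genotype. The SD of all values within an array was 2.18 to 2.26 in hearts of E11.5 but 2.38 to 2.42 in those of E13.5, so that stage and array processing cannot be told apart. As a guide to background, 1208 probe sets of olfactory and vomeronasal receptors, which the heart was taken not to use, had means over the 16 hearts of which the 95th percentile was 6.187. Below this level, 30 of the 95 probe sets were called dim and 65 were not.

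When both stages were averaged, 2 genes of this set were called lower in mutant hearts, *Kcnh7* and *Kcnj3*. *Kcnh7* encodes a voltage-gated channel of the ether-a-go-go-related group, best known from the nervous system, and *Kcnj3* encodes the inward rectifier subunit that, with that of *Kcnj5*, carries the acetylcholine-activated current which slows the heartbeat. Their promoters are shown because these were the members called over both stages. Each window runs from 250 bases before to 50 bases after a transcription start, from RefSeq on build GRCm38.p6, written 5′ to 3′ in the direction of the gene, with the dinucleotide CG in capitals. The *Kcnh7* window lies at chr2:63184238-63184537 on the minus strand, and that of *Kcnj3* at chr2:55435720-55436019 on the plus strand.
Kcnh7: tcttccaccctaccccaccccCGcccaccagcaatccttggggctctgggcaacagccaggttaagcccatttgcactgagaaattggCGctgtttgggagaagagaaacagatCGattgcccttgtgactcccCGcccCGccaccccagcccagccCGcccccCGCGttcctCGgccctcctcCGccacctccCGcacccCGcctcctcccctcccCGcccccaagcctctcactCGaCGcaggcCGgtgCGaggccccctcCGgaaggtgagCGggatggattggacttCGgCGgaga
Kcnj3: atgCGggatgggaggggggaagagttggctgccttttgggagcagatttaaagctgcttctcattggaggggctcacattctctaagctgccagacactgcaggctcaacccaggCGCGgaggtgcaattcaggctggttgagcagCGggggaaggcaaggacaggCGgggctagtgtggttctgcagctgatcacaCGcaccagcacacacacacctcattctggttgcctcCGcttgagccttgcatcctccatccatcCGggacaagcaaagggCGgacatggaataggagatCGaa
The *Kcnh7* window held 21 CG dinucleotides, more than 75.2% of the 32851 RefSeq promoter windows of this length, and that of *Kcnj3* held 10, more than 56.5%. Motifs were searched on both strands, and neither window held any of them. The letters TATAAA, the core of a TATA box, occur in 13.6% of all windows. The letters AGATAA, bound by GATA factors, occur in 11.2%. The letters TNAAGTG, bound by NKX factors, occur in 3790 of the 32851 windows. The letters CACGTG, a single form of the E-box, occur in 7.15%, and other forms of the E-box were not searched. No readout of chromatin or binding was used here, and 70 of the 92 genes had a window in the table.

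*Kcnh7* was lower in mutant than in control hearts at both stages. At E11.5, the 4 mutant hearts had log2 values of 7.77, 7.42, 7.20 and 7.58, and the 4 control hearts 8.23, 8.84, 8.70 and 8.16. At E13.5, the mutant hearts had 7.26, 6.78, 7.35 and 6.64, and the control hearts 8.02, 7.91, 7.99 and 7.81. No mutant heart reached the lowest control heart of its stage. The log2 FC was -0.99 (SE 0.19, n = 4 and 4, adjusted p in limma 0.0354) at E11.5, where mutant signal was 50.3% of control. At E13.5 it was -0.92 (SE 0.19, adjusted p 0.125), which did not pass the threshold. Averaged over the stages it was -0.96 (SE 0.13, adjusted p 0.00207), and this call was kept in each of 26 other settings, with adjusted p from 0.000601 to 0.0375. The call at E11.5 was less firm, with adjusted p from 0.0146 to 0.26 over 27 settings, and it was lost when hearts of each comparison were fitted alone, with array weights, without the 3 hearts that stood apart (mutant E11.5 replicates 3 and 4 and control E13.5 replicate 1), and without each of mutant E11.5 replicates 2, 3 and 4, control E11.5 replicates 2 and 3, and control E13.5 replicates 2, 4 and 5. The difference between the effects at the stages was 0.07 (unadjusted p 0.787). The relative *Kcnh2*, which encodes the main rapid repolarising channel of the heart, had a log2 FC of -0.01 (SE 0.08) at the earlier stage and 0.06 (SE 0.08) at the later.

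*Kcnj3* was lower in mutant hearts when the stages were averaged. The mutant hearts of E11.5 had values of 8.74, 8.03, 8.12 and 7.59, and the control hearts 8.48, 8.62, 8.55 and 8.64, so that mutant replicate 1 lay above every control and the other 3 below. At E13.5, the mutant hearts had 8.32, 8.13, 8.66 and 8.23, and the control hearts 9.00, 9.29, 9.23 and 9.21, without overlap. The log2 FC was -0.45 (SE 0.18, adjusted p in limma 0.446) at E11.5 and -0.85 (SE 0.18, adjusted p 0.203) at E13.5, neither of them called, and -0.65 (SE 0.13, adjusted p 0.0382) averaged. That average call was lost in 16 of 26 other settings (adjusted p from 0.0021 to 0.194), among them a term for Y-linked genes (adjusted p 0.111) and the omission of any one heart other than mutant E11.5 replicates 1 and 4 and mutant E13.5 replicate 3. In control hearts *Kcnj3* rose by 0.61 from E11.5 to E13.5 (SE 0.18, adjusted p 0.0149), a call lost after quantile normalisation. In mutant hearts the difference was 0.22 (adjusted p 0.362), and the effects of stage in mutant and control hearts were not shown to differ (unadjusted p 0.148).

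*Chrm2*, which encodes the muscarinic receptor that opens this channel in the heart, was on the list of partner genes and was lower as well. Its mutant hearts had values of 8.36, 7.84, 8.46 and 8.66 at E11.5, against 8.99, 8.89, 9.18 and 8.68 in control hearts. At E13.5 the mutant hearts had 9.80, 9.46, 9.07 and 9.61, against 9.91, 10.24, 10.47 and 10.25. The groups did not overlap at either stage, although at each the highest mutant heart came close to the lowest control. The log2 FC was -0.61 at E11.5 (adjusted p in limma 0.273) and -0.73 at E13.5 (0.488), and -0.67 averaged (0.0377), the only one called of these. In 14 of 26 other settings the average call was lost, including a term for Y-linked genes (adjusted p 0.126) and omission of each of mutant E11.5 replicates 1, 2 and 3, control E11.5 replicates 1, 2 and 3, mutant E13.5 replicates 2, 3 and 4, and control E13.5 replicates 2, 4 and 5. *Kcnj5*, the channel partner of *Kcnj3*, had log2 FC values of -0.14 (SE 0.13) and -0.11 (SE 0.13), with overlapping hearts. The whole list of partners held 24 genes (sulfonylurea receptors, partners of transient outward and large-conductance channels, pacemaker channels, the sodium pump, receptors that open inward rectifiers, and scaffolds), of which 18 had a probe set of their own. By limma none of the 18 was called at E11.5 (0.3% lower and 0.097% higher of all probe sets naming one gene) or E13.5 (0.0416% and 0.0139%). At each stage 1, *Chrm2*, was lower past the fold change at an unadjusted p under 0.05, against 1.81% and 0.836% of all. Over both stages 1 was called lower and 0 higher, against 0.439% (0.305% without *Chd7*) and 0.129%.

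*Kcnip1*, of which the mean over all hearts was dim, was higher in mutant hearts at E11.5. It encodes a calcium-binding subunit that enlarges the transient outward current. The mutant hearts of E11.5 had values of 7.23, 6.81, 6.71 and 7.17, and the control hearts 6.29, 5.95, 6.12 and 5.79. At E13.5 the mutant hearts had 5.87, 5.21, 5.68 and 5.19, and the control hearts 5.31, 5.31, 5.41 and 5.19. All mutant hearts lay above all controls at E11.5, while at E13.5 the groups overlapped and every heart was below the dim level. The log2 FC was 0.94 at E11.5 (SE 0.17, adjusted p in limma 0.0287) and 0.18 at E13.5 (SE 0.17, adjusted p 1.00). Since 3 of the 4 control hearts of E11.5 were below the dim level as well, the size of the difference is not settled. The 2 highest mutant hearts of E11.5, replicates 1 and 4, were those without Y-linked signal, and all 4 controls had it. With a term for Y-linked genes the log2 FC was 0.83 (adjusted p 0.085). The effect at E13.5 was smaller by a log2 FC of -0.76 (unadjusted p 0.00581, adjusted p 1.00), which did not pass. Over 26 settings the adjusted p at E11.5 ran from 0.0111 to 0.2, and the call was lost with own hearts alone, array weights, that term, without the hearts that stood apart, and without mutant E11.5 replicates 1 or 4 or control E11.5 replicates 2, 3 or 4. *Kcnip1* fell between stages in both genotypes, by a log2 FC of -0.73 in control hearts (adjusted p 0.00298) and -1.49 in mutant hearts (adjusted p 9.79e-06). *Kcnmb1* lies within the bounds of *Kcnip1* on chromosome 11 in the RefSeq table, and its log2 FC at E11.5 was -0.23 (SE 0.21).

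Among all members, limma called 1 probe set lower and 1 higher at E11.5, against 0.3% lower and 0.097% higher of all probe sets naming one gene. The background for lower calls was 0.185% without the 30 probe sets of *Chd7*. At E13.5, 0 were called lower and 0 higher, against 0.0416% and 0.0139%, with 2 lower and 1 higher at an unadjusted p under 0.05 and the same fold change (0.836% and 0.564% of all). Averaged over the stages 2 were called lower and 0 higher, against 0.439% (0.305% without *Chd7*) and 0.129%, and at an unadjusted p under 0.05 with the same fold change 2 lower and 2 higher, against 0.85% and 0.397%. At an unadjusted p under 0.05 and the same fold change, 1 was lower and 6 were higher at E11.5, against 1.81% and 1.32%. Hearts did not overlap for 2 lower and 5 higher members at E11.5, against 2.09% and 1.94% of all, and for 3 lower and 3 higher at E13.5, against 2.19% and 2.02%. The median log2 FC of the 95 was 0.01 at E11.5 and -0.02 at E13.5, beside 0.00 at both stages for all probe sets naming one gene.

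**Figure D1:**
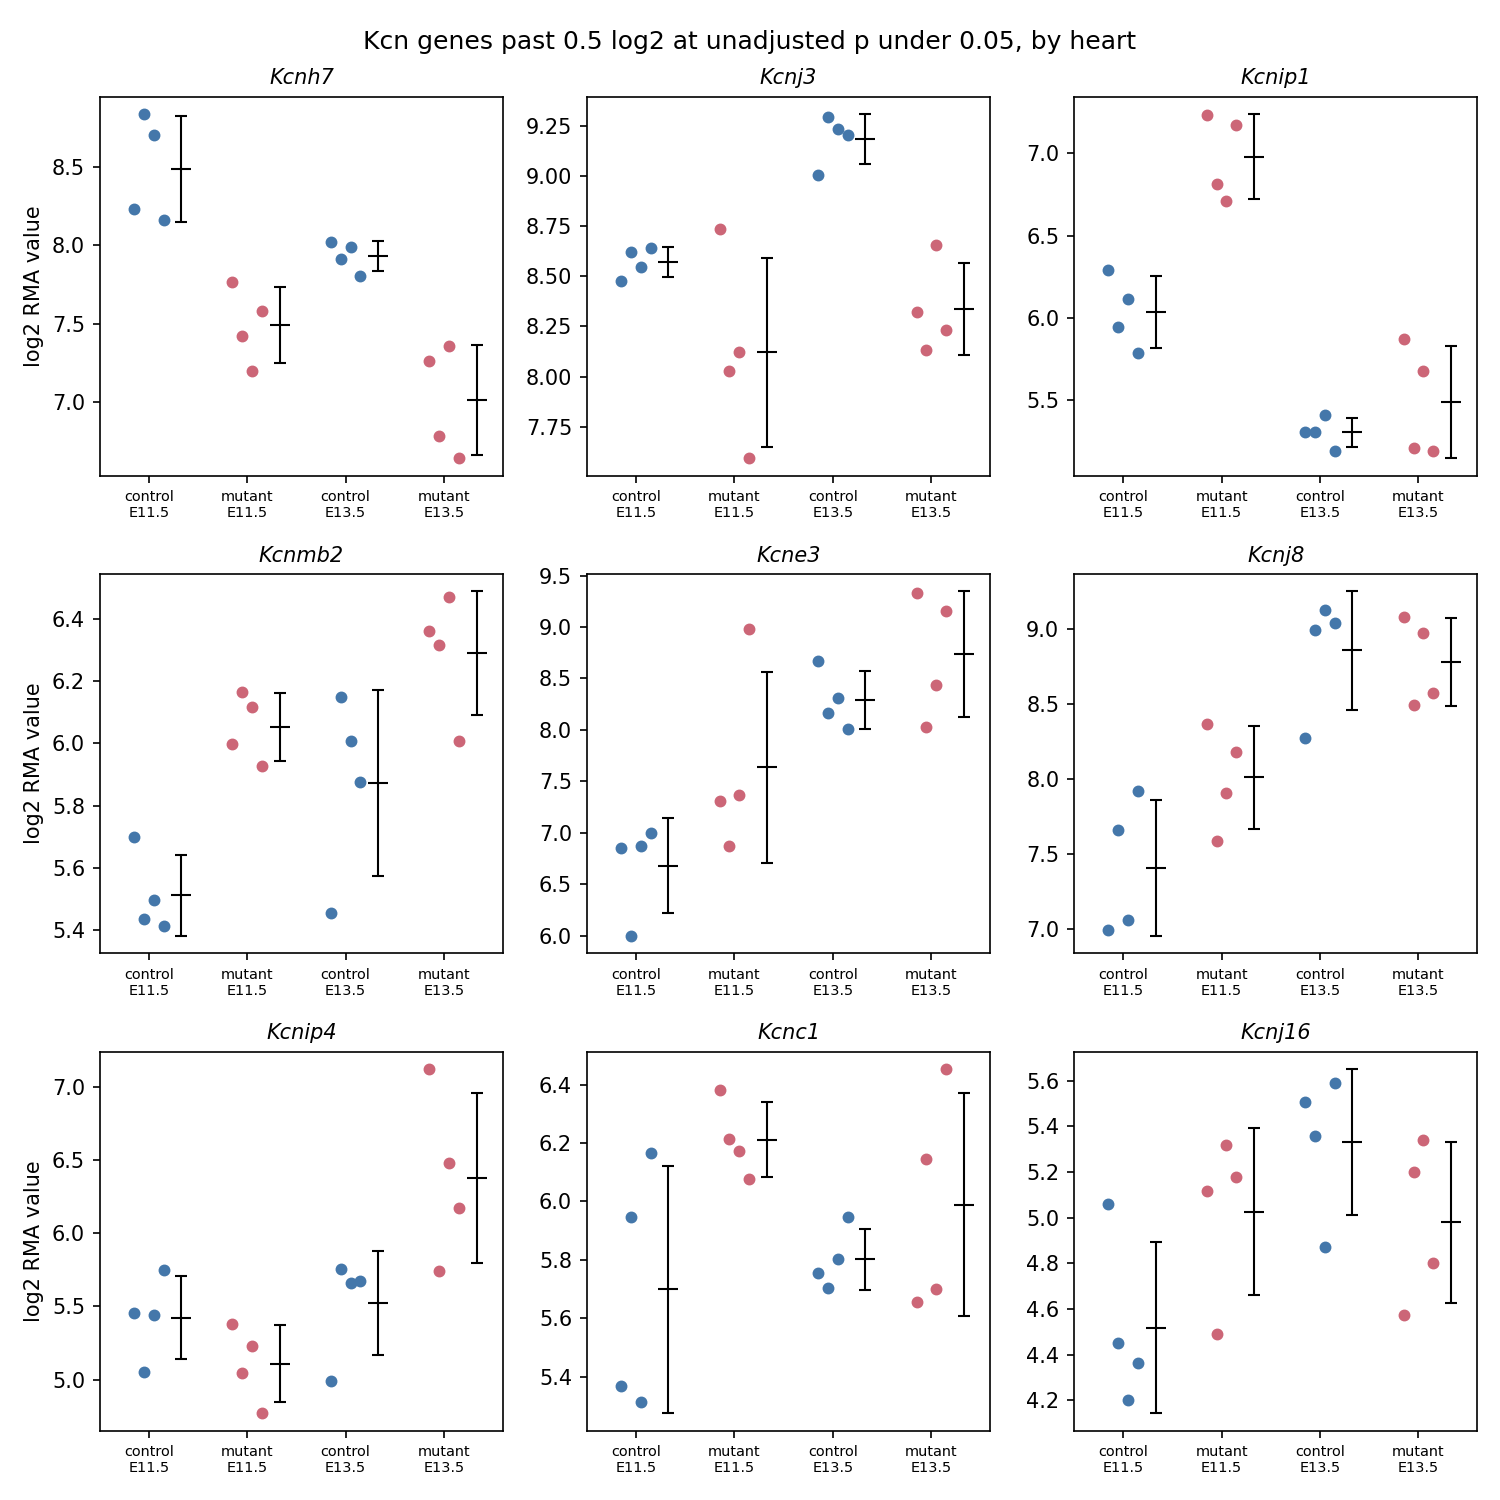
Log2 RMA value of each heart for the 9 *Kcn* genes with a log2 FC over 0.5 in size and an unadjusted p under 0.05 at either stage, in control (blue) and mutant (red) hearts, with black bars for mean ± SD (n = 4). Vertical axes differ between panels and do not start at 0. *Kcnh7* hearts of the 2 genotypes are apart at both stages, those of *Kcnj3* at E13.5 and those of *Kcnip1* and *Kcnmb2* at E11.5.

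The other 6 members past the fold change at an unadjusted p under 0.05 were not called. *Kcnmb2*, which encodes a subunit that inactivates large-conductance calcium-activated channels, had values of 6.00, 6.16, 6.12 and 5.93 in mutant hearts at E11.5 and of 5.70, 5.44, 5.50 and 5.41 in controls, without overlap. At E13.5 it had 6.36, 6.32, 6.47 and 6.01 in mutant and 5.46, 6.15, 6.01 and 5.88 in control hearts, where 1 mutant heart fell among the controls. Its log2 FC was 0.54 (SE 0.14, adjusted p in limma 0.171) and 0.42 (SE 0.14, adjusted p 1.00), with 0.48 (SE 0.10, adjusted p 0.0533) averaged, and its mean was dim. *Kcne3* encodes an accessory subunit that holds the channel of *Kcnq1* open. It had 7.31, 6.87, 7.37 and 8.99 in mutant hearts of E11.5, against 6.85, 6.00, 6.87 and 7.00 in controls. Its log2 FC of 0.96 (SE 0.39, unadjusted p 0.0281, adjusted p 0.454) rested largely on mutant replicate 4, without which it was 0.50 (adjusted p 0.627).

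*Kcnj8* encodes the pore of the ATP-sensitive channel of vascular smooth muscle and pericytes. At E11.5 it had 8.37, 7.58, 7.91 and 8.18 in mutant hearts and 6.99, 7.66, 7.06 and 7.92 in control hearts, with overlap. Its log2 FC was 0.60 at E11.5 (SE 0.25, unadjusted p 0.0263, adjusted p in limma 0.446) and -0.08 at E13.5 (SE 0.25), with a sign at E13.5 that turned in 3 of 27 settings. Of 8 markers of smooth muscle and pericytes, 1 was called lower at E11.5, *Rgs5*, and 0 higher, against 0.3% and 0.097% of all probe sets naming one gene. *Rgs5* had 9.16, 7.04, 8.70 and 7.73 in mutant hearts and 9.92, 9.80, 10.57 and 10.48 in control hearts. The median log2 FC of the 8 was 0.05. Their summed level ran from 14.13 to 14.48 in mutant and from 14.17 to 14.33 in control hearts on the log2 scale. In this sum bright markers weigh most, such as *Acta2* (13.12 to 13.29 in mutant and 13.10 to 13.27 in control hearts). The part of smooth muscle cells and pericytes in the values of *Kcnj8* was not tested. In a whole heart, fewer cells of a type and less RNA per cell cannot be told apart.

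*Kcnip4*, which encodes another subunit of transient outward channels, had 7.13, 5.75, 6.48 and 6.17 in mutant hearts at E13.5 and 4.99, 5.76, 5.66 and 5.67 in controls. The lowest mutant heart lay just below the highest control, and the log2 FC was 0.86 (SE 0.26, unadjusted p 0.00419, adjusted p in limma 0.74). Every control heart of E13.5 and mutant E13.5 replicates 2 and 4 were below the dim level, so the size of this difference is not settled. At E11.5 the log2 FC was -0.32 (SE 0.26), with 4.77 to 5.38 in mutant and 5.05 to 5.75 in control hearts, all dim. The difference between the stages was 1.18 (unadjusted p 0.00528, adjusted p 1.00). *Kcnc1*, a fast-firing neuronal channel, and *Kcnj16*, an inward rectifier that joins with others, were dim and had log2 FC values at E11.5 of 0.51 (unadjusted p 0.0208) and 0.51 (unadjusted p 0.0456). At E11.5 the summed level of 7 measured neuron markers lay between 9.40 and 9.58 in mutant hearts and between 9.61 and 9.84 in controls, which did not overlap, and at E13.5 between 9.50 and 9.88 and between 9.44 and 9.63, which did. Most of these markers were near the dim level, 1 of the 7 was dim, and their median log2 FC at E11.5 was -0.12. At that stage *Stmn2* had 5.96 to 7.23 in mutant and 7.18 to 7.84 in control hearts. *Th* had 6.81 to 7.26 in mutant and 6.81 to 7.07 in control hearts. None of these markers was called by genotype at either stage, and their part in *Kcnh7*, *Kcnc1*, *Kcnip1* and *Kcnip4* was not tested.

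The signs of the log2 FC at the stages were then compared across members. For 57 of 95 members (60%) the log2 FC had the same sign at E11.5 and E13.5, against 56.4% of all 21640 probe sets naming one gene. Across members, Pearson's r between the log2 FC values was 0.41, against 0.30 across all, as a description over genes that share 16 hearts. Of members outside the naming rule, chosen here after their values were seen, *Kcng1* had 0.46 and 0.48 and the two-pore channel gene *Kcnk1* 0.39 and 0.40, with averaged adjusted p in limma of 0.164 and 0.188.

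**Figure D2:**
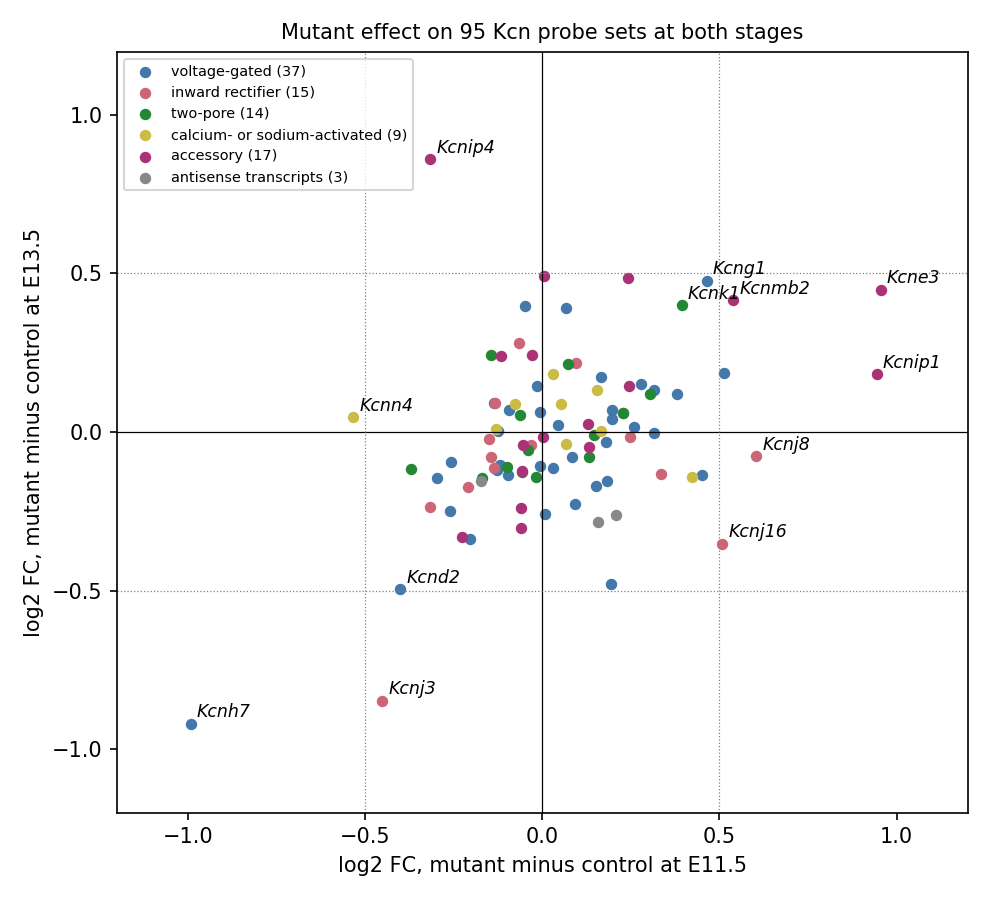
Log2 FC, mutant minus control, of the 95 *Kcn* probe sets at E11.5 (horizontal) and E13.5 (vertical), 1 point for each, coloured by family, with dotted lines at a size of 0.5. Most points lie within 0.5 of 0 on both axes. *Kcnh7* alone is past -0.5 at both stages, at -0.99 and -0.92, and *Kcnip4* lies high at E13.5 and below 0 at E11.5.

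The genes of the known cardiac currents were then taken by current, of which 15 were measured. By limma none was called by genotype at a single stage, and *Kcnj3* was the one called on average. Of all probe sets naming one gene, 0.3% were called lower and 0.097% higher in the earlier hearts. In the later hearts the shares were 0.0416% and 0.0139%, and for the average 0.439% and 0.129%. Where shares are so small, a count of 0 among 15 genes cannot show whether these genes were spared. For the slow and rapid delayed rectifiers, *Kcnq1* had a log2 FC of 0.28 (SE 0.13) at E11.5 and 0.15 (SE 0.13) at E13.5, with mutant hearts from 9.23 to 9.36 above control hearts from 9.10 to 9.21 at E13.5, and its partner *Kcne1* had 0.00 and -0.02 (SE 0.14). For the inward rectifier that holds the resting potential, *Kcnj2* had 0.25 and -0.01 (SE 0.20) and *Kcnj12* -0.21 and -0.17 (SE 0.18). For the transient outward current, *Kcnd2* had -0.40 and -0.50 (SE 0.21, unadjusted p 0.0757 and 0.0322), *Kcnd3* -0.10 and -0.14 (SE 0.13) and *Kcnip2* 0.00 and 0.49 (SE 0.16, unadjusted p 0.00744 at E13.5). Control hearts of *Kcnip2* at E13.5 ran from 5.92 to 6.29, around the dim level. The value of *Kcnd2* at E11.5 rested on mutant replicates 3 and 4, at 6.97 and 7.06, while replicates 1 and 2 stood at 8.00 and 7.82 and the controls between 7.61 and 8.02. Without these replicates and control E13.5 replicate 1, it was 0.05. *Kcna5* had -0.09 and 0.07 (SE 0.16), *Kcnk3*, a two-pore channel of the background current, -0.14 and 0.24 (SE 0.12), and the brighter probe set of *Kcnma1*, of which the mean was dim, 0.05 and 0.09 (SE 0.24).

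The cardiac ATP-sensitive channel pairs the pore of *Kcnj11* with the sulfonylurea receptor of *Abcc9*. Mutant hearts had *Kcnj11* values of 8.64, 8.27, 8.41 and 8.55 at E11.5, against 8.64, 8.89, 8.71 and 8.90 in controls, and of 8.64, 8.69, 8.44 and 8.50 at E13.5, against 8.77, 8.84, 8.86 and 8.75. The groups met at E11.5 and were apart at E13.5. The log2 FC was -0.32 (SE 0.10, unadjusted p 0.00751) and -0.24 (SE 0.10, unadjusted p 0.0351), with -0.28 averaged (adjusted p in limma 0.175). *Abcc9*, taken up after its values were seen, had values between 9.72 and 10.26 in mutant hearts of E11.5, below all controls (10.31 to 10.79). In mutant hearts of E13.5 they lay between 9.75 and 10.08, again below all controls (10.25 to 10.65). Its log2 FC was -0.48 (SE 0.15) at both stages, with an averaged adjusted p of 0.0676, so neither gene was called.

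**Figure D3:**
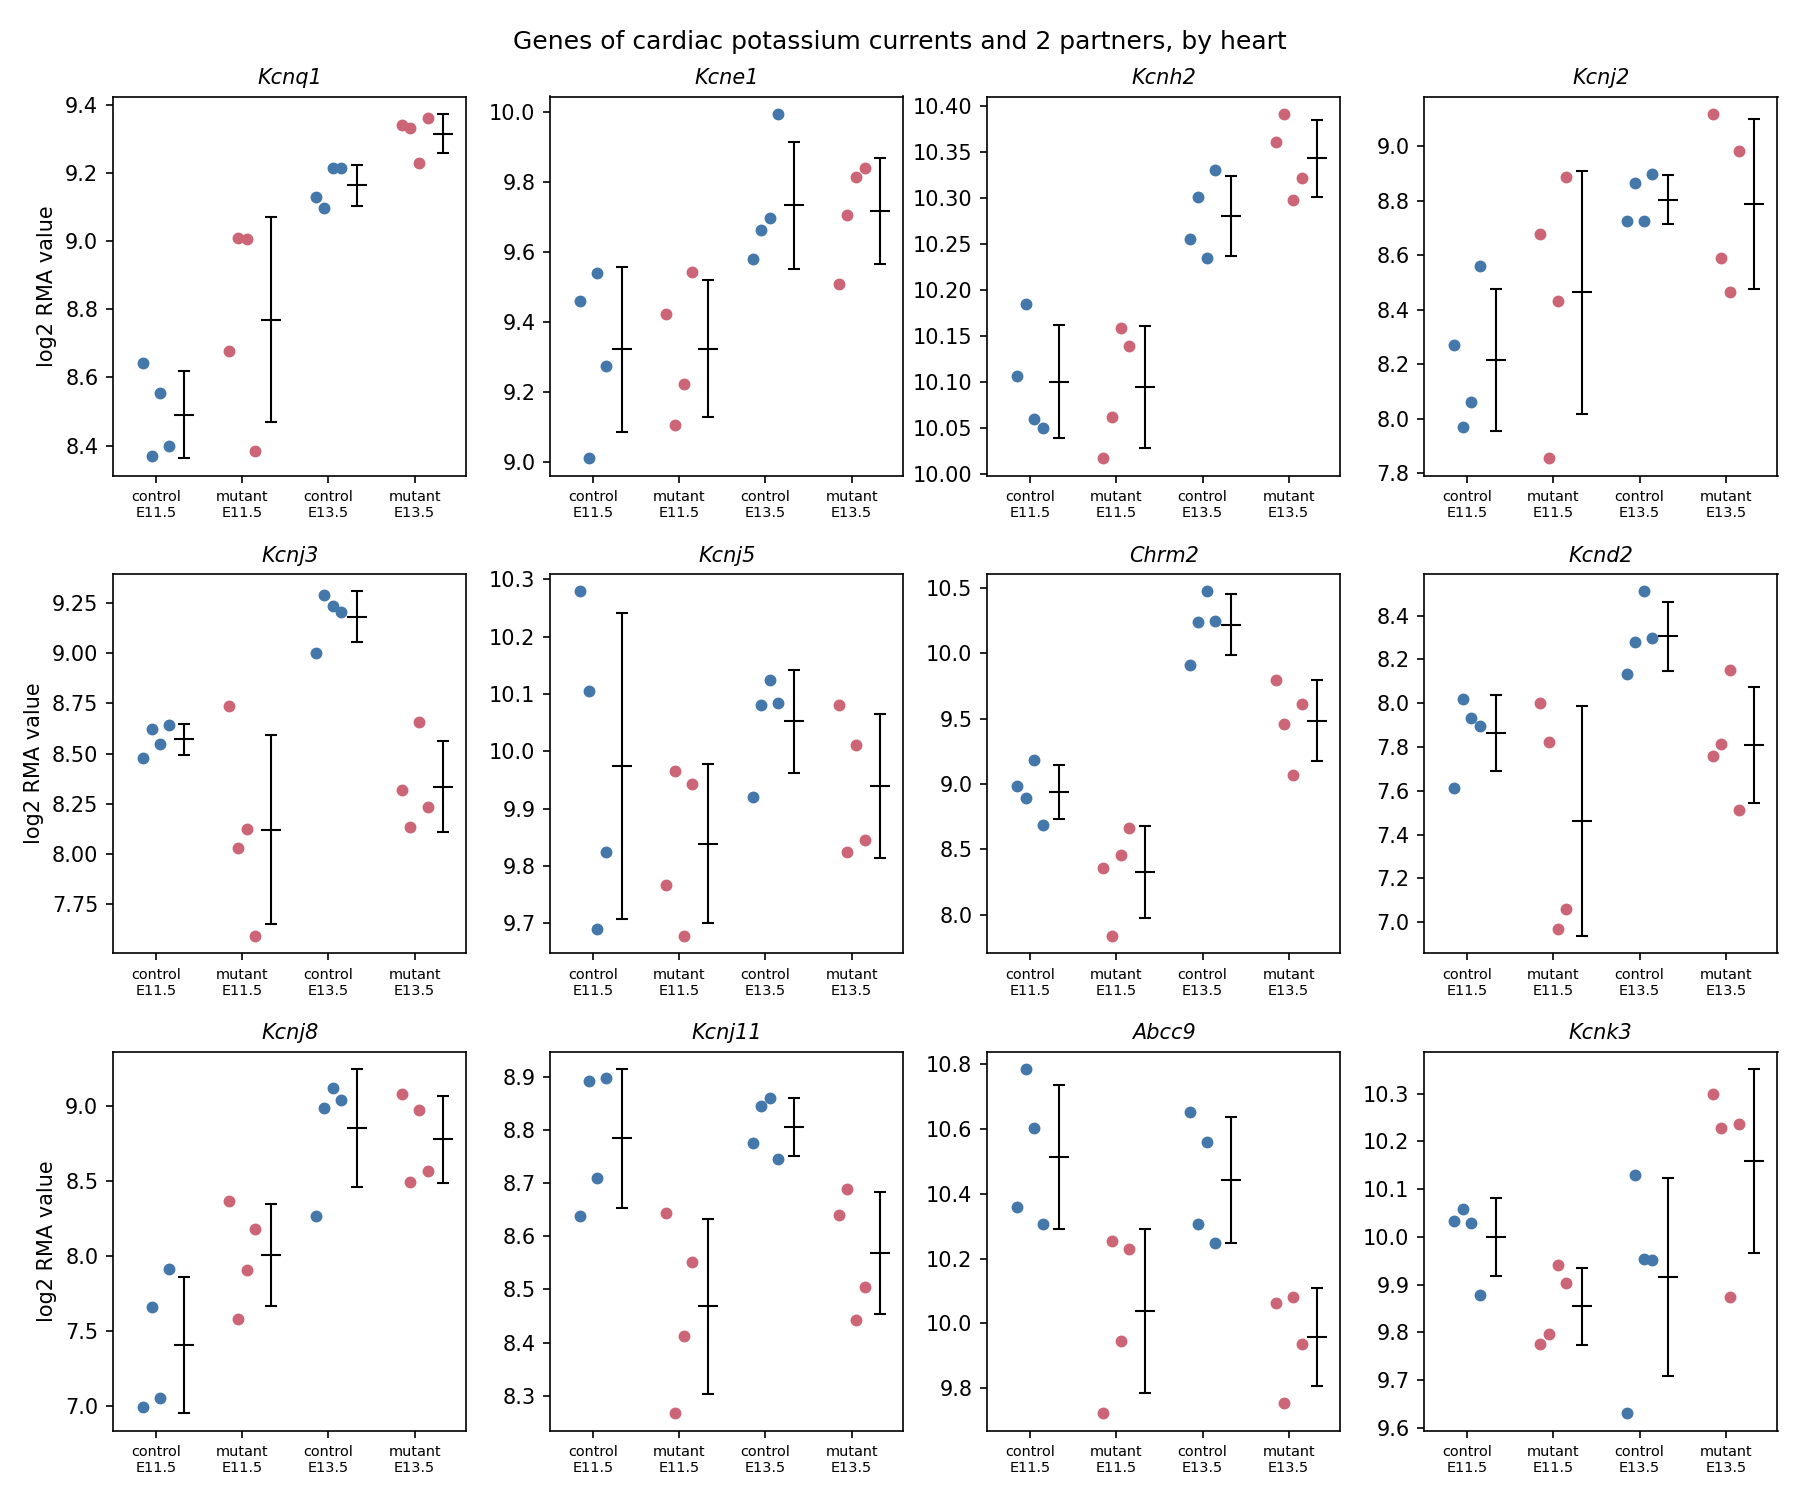
Log2 RMA value of each heart for 10 *Kcn* genes of cardiac currents and the partner genes *Chrm2* and *Abcc9*, in control (blue) and mutant (red) hearts, with black bars for mean ± SD (n = 4) and an axis of its own, not starting at 0, in each panel. Mutant hearts lie below controls for *Chrm2* and *Abcc9* at both stages, and *Kcnq1* hearts of E13.5 lie above all those of E11.5.

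From E11.5 to E13.5 more members changed than between genotypes. In control hearts 11 were called lower and 14 higher, against 12.5% and 16.7% of all probe sets naming one gene. In mutant hearts 12 were called lower and 5 higher, against 12.7% and 17.2%, or 11 and 10 where arrays were centred on their median. Hearts of the 2 stages did not overlap for 15 lower and 16 higher members in controls (15.7% and 26.7% of all) and for 12 lower and 7 higher in mutants (14.2% and 24.6%). Of the lower calls 9 were shared, which is 81.8% of those in control hearts and 75% of those in mutant hearts. Of the higher calls 3 were shared (*Kcne3*, *Kcnj8* and *Kcnq1*), 21.4% and 60%. The difference between the genotypes in the effect of stage was called by limma for 0 members, and 4 lower and 3 higher had an unadjusted p under 0.05 (1.83% and 2.13% of all): *Kcna4*, *Kcnip1*, *Kcnip2*, *Kcnip4*, *Kcnj16*, *Kcnk3* and *Kcnt1*.

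Among genes higher at E13.5, *Kcne3* had the largest log2 FC in control hearts, 1.61 (SE 0.39, adjusted p in limma 0.00446). Its control hearts had the E11.5 values given above (6.00 to 7.00) and, at E13.5, values of 8.67, 8.17, 8.31 and 8.01, fully apart. *Kcnj8* rose by 1.45 (SE 0.25, adjusted p 0.000308), from 6.99, 7.66, 7.06 and 7.92 to 8.27, 8.99, 9.12 and 9.04. *Kcnq1*, the pore of the slow delayed rectifier, rose by 0.67 (adjusted p 0.000676), but by 0.495 after quantile normalisation, just under the threshold on the fold change. *Kcna4*, a rapidly inactivating channel, rose by 0.73. Its control E13.5 replicate 1 (6.74) lay within the range of the control hearts of E11.5 (6.71 to 6.90). *Kcnj16* was called with a log2 FC of 0.81, although all its control hearts were below the dim level at both stages. *Kcnj2* rose by 0.59 (adjusted p 0.0304), a call lost in 7 of 27 settings, among them the omission of control E11.5 replicates 2 or 3 or control E13.5 replicates 2 or 5. In mutant hearts *Kcne3* rose by 1.10, *Kcnj8* by 0.77 and *Kcnq1* by 0.55, while *Kcna4* had 0.06 (adjusted p in limma 0.837). Of 5 macrophage markers 4 were called higher with stage in control hearts, against 16.7% of all probe sets naming one gene (22.3% of those not dim). Their summed level lay between 9.38 and 9.62 in the earlier hearts and between 10.35 and 10.69 in the later. Of 8 markers of smooth muscle and pericytes 1 was called lower and 1 higher with stage, with a median log2 FC of -0.16. The part of these cell types in the rises was not tested.

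Among genes lower at E13.5, *Kcnn4* had the largest log2 FC. It encodes the calcium-activated channel of red blood cells. Control hearts of E11.5 had 9.19, 8.68, 9.15 and 9.88. Those of E13.5 had 8.48, 7.29, 7.58 and 7.27, all lower, and the log2 FC was -1.57 (SE 0.28, adjusted p in limma 0.00045). In mutant hearts it was -0.99 (adjusted p 0.0104). The summed level of 5 measured erythroid markers was 15.51, 15.18, 15.41 and 15.61 in control hearts of E11.5. In those of E13.5 it was 15.65, 15.12, 14.76 and 15.16, with 1 of the 5 called lower. Control E13.5 replicate 1 was the highest of its group in both *Kcnn4* and the erythroid sum, and the part of blood in the fall was not tested. *Kcnf1*, a silent modifier subunit, fell by 0.86, *Kcnj1*, known as a channel of the kidney, by 0.79, *Kcnq3*, a subunit of a neuronal current, by 0.76 and the dimmer probe set of *Kcna2* by 0.74 on the log2 scale, a call lost after quantile normalisation (adjusted p 0.0536). *Kcnj1* was dim throughout. All control hearts of E13.5 were also below the dim level for *Kcnf1* (5.85 to 6.06) and for that probe set of *Kcna2* (5.59 to 6.17), so the sizes of these falls are not settled.

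The fall of dim genes must be read against the background. In control hearts the chemoreceptor probe sets had a median log2 FC of -0.56 between stages, with 96.8% below 0, whereas all probe sets naming one gene had 0.04. Of the 30 dim members 4 were called lower and 2 higher, against 26.4% and 2.34% of all dim probe sets. Of the 65 members that were not dim, 7 were called lower and 12 higher, against 7.03% and 22.3%. In mutant hearts 5 dim members were called lower and 1 higher, against 27.8% and 3.05%, and 7 and 4 of those that were not dim, against 6.82% and 22.7%. The median of the 95 members was -0.04 and turned to 0.02 after quantile normalisation, under which the chemoreceptors still had -0.34. By family, counts in control hearts stand beside 12.5% called lower, 16.7% called higher and 47.4% below 0 of all probe sets naming one gene. Two-pore channels had 12 of 14 probe sets (85.7%) below 0 with a median of -0.30 (-0.30 after quantile normalisation). Of them 1 was called lower, *Kcnk18*, and 0 higher. Inward rectifiers had 1 called lower and 4 higher, with a median of 0.08, and voltage-gated channels 7 lower and 5 higher, with -0.19, which came to -0.01 after quantile normalisation.

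**Figure D4:**
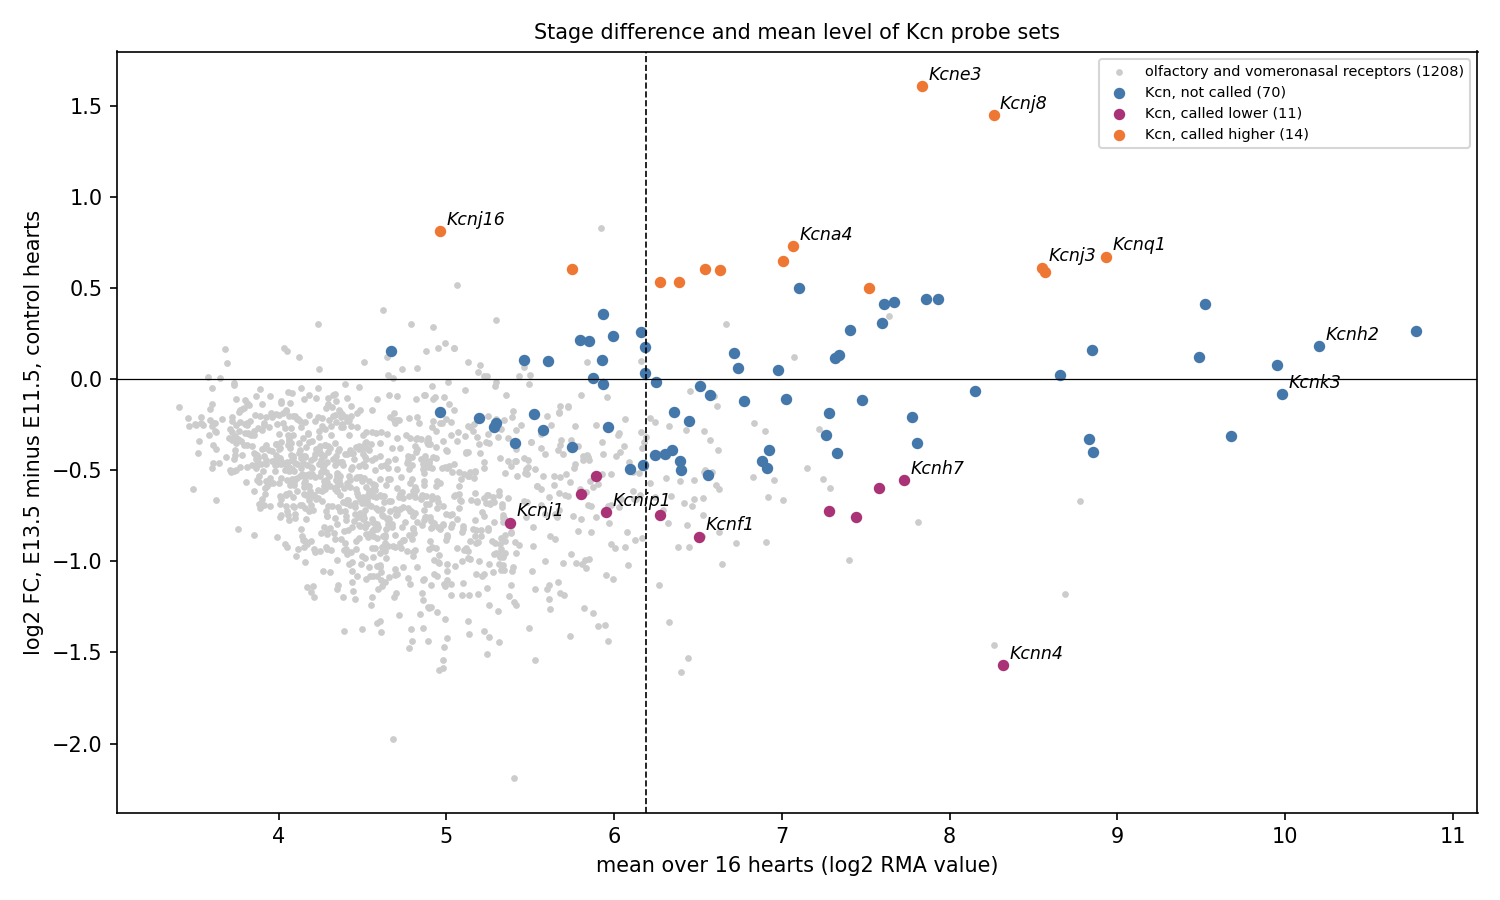
Log2 FC from E11.5 to E13.5 in control hearts (vertical) against the mean log2 RMA value over 16 hearts (horizontal) for the 95 *Kcn* probe sets, coloured by call, and for 1208 chemoreceptor probe sets in grey, with a dashed line at the dim level of 6.187. The grey points lie mostly below 0, and *Kcne3*, *Kcnj8* and *Kcnn4* stand farthest from 0 among members.

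The antisense transcripts *Kcnmb4os1* and *Kcnmb4os2* overlap *Kcnmb4* on chromosome 10 in the RefSeq table. They rose by 0.53 (adjusted p in limma 0.0161) and 0.65 (adjusted p 0.00406) from E11.5 to E13.5 in control hearts, while *Kcnmb4*, a subunit of large-conductance channels, had 0.14 (SE 0.14). In mutant hearts the antisense transcripts had 0.06 and 0.21, neither called, and the difference between the genotypes had unadjusted p of 0.0572 and 0.0645 (both 1.00 adjusted). *Kcnd3os*, which overlaps *Kcnd3*, had -0.07. Where genes had 2 probe sets, those of *Kcna2* had -0.74 and -0.40 and those of *Kcnh8* -0.19 and -0.53, with 1 of each pair called lower. The pair of *Kcnma1* had 0.21 and 0.16, neither called.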

How the data were processed

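The study measured RNA of single whole hearts on Affymetrix Mouse Gene 1.0 ST arrays, and the authors normalised them with RMA in the affy package. They deposited log2 values (2.74 to 14.56) in 1 table of 34760 probe sets and 16 hearts. Whether RMA was run on both stages together is not given in the sources used here. RMA equalises arrays that are run together, so a change shared by most genes between such arrays would not be seen. The deposited arrays were not equal between the stages, as their SD given above shows. Groups came from the labels.

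Symbols came from the platform annotation. The members and gene lists were chosen with earlier results of these data known. A model with 1 mean per group was fitted to all 16 arrays in limma 3.58.1 (R 4.3.3), with 12 residual degrees of freedom and Benjamini-Hochberg adjustment over all 34760 probe sets. Thresholds were a log2 FC of 0.5 and an adjusted p of 0.05, and 0.05 alone for the difference between stages. The fit was tested on simulated data. Named were members past 0.5 at an unadjusted p under 0.05 by genotype, genes of known cardiac currents, and the 5 called members with the largest log2 FC in each direction by stage in control hearts. For a gene with several probe sets the one with the highest mean was used, unless stated. Marker levels are log2 of summed linear values.

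Alternatives were own hearts fitted alone, array weights, a prior both trended and robust, median centring, quantile normalisation, leaving out dim probe sets (below percentile 40), probe sets of single genes, a gene's median over its probe sets, the replicate number as a block, a covariate of Y-linked genes, no threshold on the fold change, leaving out each heart, and leaving out 3 hearts that stand apart (mutant E11.5 replicates 3 and 4, control E13.5 replicate 1). Whether replicate numbers pair hearts is not given in the labels, and the main fit held no pairing. Plots used matplotlib 3.10.9 (Python 3.11.15).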

Additional observations from a re-analysis of the deposited data

Results flagged for a closer look

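In 8 of 112 groups of 4 hearts, over 28 named members, 1 heart lay far from the other 3. With independent, normally distributed values about 1 in 20 groups would show such a gap. These members were named partly by their values and share the same hearts, so that rate is no firm guide here. The cause was not tested. Control E13.5 replicate 1 was low for *Kcna4* (6.74, against 7.72 to 7.79), *Kcnip4* (4.99, against 5.66 to 5.76) and *Kcnj8* (8.27, against 8.99 to 9.12). Control E11.5 replicate 3 was low for *Kcna2* (6.03, against 6.78 to 6.92), replicate 2 for *Kcne3* (6.00, against 6.85 to 7.00) and replicate 4 for *Kcnk3* (9.88, against 10.03 to 10.06). Mutant E13.5 replicate 3 was low for *Kcnk3* (9.87, against 10.23 to 10.30). Control E13.5 replicate 2 was high for *Kcnq3* (7.23, against 6.84 to 6.89).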

How the results depend on the processing

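At E11.5 the 1 lower and 1 higher call of members each became 0 with hearts of a comparison fitted alone, array weights, the replicate block or 3 hearts left out (mutant E11.5 replicates 3 and 4 and control E13.5 replicate 1), and the higher call also became 0 with dim probe sets left out or the Y-linked covariate. At E13.5 the lower count of 0 became 2 with array weights. On average, the 2 lower calls became 1 with the replicate block, the Y-linked covariate or those 3 hearts left out, and the 0 higher became 1 among probe sets naming one gene. By stage in control hearts, the 11 lower calls became 6 with dim probe sets left out and 17 with no threshold on the fold change, and the 14 higher became 7 with the replicate block. In mutant hearts, the 12 lower calls became 7 with dim probe sets left out and 6 when the 3 hearts were omitted, while the 5 higher became 8 with array weights, 10 with centred arrays and 14 with no threshold. Leaving out 1 heart at a time gave counts of 0 to 1 lower and 0 to 1 higher at E11.5, 0 to 1 lower and 0 higher at E13.5, 1 to 2 lower and 0 to 2 higher on average, 0 for the difference between stages, 9 to 14 lower and 11 to 15 higher in control hearts, and 11 to 16 lower and 2 to 8 higher in mutant hearts. The cause was not tested, apart from settings that by construction test fewer genes or hearts. Correlations of deviations between hearts of one replicate number were -0.025 to 0.0143 at E11.5, and at E13.5 -0.0454 to 0.0426. No shared deviation was seen, but this cannot settle whether such hearts were paired, since litters are not given. With the block the calls of *Kcna4*, *Kcnj16* and *Kcnj2* by stage in control hearts, of *Kcnh7* and *Kcnip1* at E11.5 and of *Kcnj3* and *Chrm2* on average were lost.

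Values of named genes turned sign in 70 of all recomputations, while 2184 kept direction and call, 64 lost a call and 10 gained one. By genotype at E11.5, *Kcne1* became -0.0524 with array weights, -0.0061 with centred arrays and -0.057 without the 3 hearts apart, *Kcnip2* -0.0077 after quantile normalisation, -0.0044 with centred arrays and -0.0532 without those hearts, *Kcnj1* -0.0029 with the Y-linked covariate and -0.0948 without those hearts, *Kcnma1* -0.0269 with array weights and *Kcnd2* 0.0488 without those hearts. At E13.5, the dimmer probe set of *Kcna2* became -0.1175 with the median of its probe sets, *Kcna5* -0.0216 without those hearts, and with the replicate block *Kcne1* 0.0472, *Kcnj2* 0.0734, *Kcnj8* 0.0136 and *Kcnn4* -0.0653. By stage in control hearts, quantile normalisation gave -0.0611 for *Kcnh2*, 0.1375 for *Kcnip2*, -0.1548 for *Kcnj11* and -0.1566 for *Kcnj5*. There *Kcnip2* was also 0.0075 with array weights, 0.0296 with centred arrays, 0.0919 with the Y-linked covariate and 0.0507 without those hearts, *Kcnj11* -0.0166 with the covariate and *Kcnk3* 0.0122 without those hearts. Leaving out 1 heart at a time, values by genotype at E11.5 ran from -0.1532 to 0.1752 for the dimmer probe set of *Kcna2*, -0.1959 to 0.0716 for *Kcna5*, -0.102 to 0.075 for *Kcne1*, -0.0934 to 0.2336 for *Kcnf1*, -0.0276 to 0.0221 for *Kcnh2*, -0.0399 to 0.0579 for *Kcnip2*, -0.0238 to 0.2383 for *Kcnj1* and -0.1184 to 0.1695 for *Kcnma1*. At E13.5 they ran from -0.0985 to 0.1185 for that of *Kcna2*, -0.0216 to 0.1412 for *Kcna5*, -0.0674 to 0.071 for *Kcne1*, -0.1246 to 0.0936 for *Kcnj2*, -0.2724 to 0.0179 for *Kcnj8*, -0.1055 to 0.2683 for *Kcnma1* and -0.0812 to 0.3235 for *Kcnn4*. By stage they ran from -0.0715 to 0.0507 for *Kcnip2*, -0.027 to 0.0595 for *Kcnj11*, -0.0178 to 0.1786 for *Kcnj5* and -0.1539 to 0.0122 for *Kcnk3*.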

Other observations

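The nearest measured protein-coding genes in the RefSeq table were read for the 3 members called by genotype. Beside *Kcnip1*, *Gabrp*, a receptor subunit for the transmitter GABA, differed by 0.96 on the log2 scale at E11.5 (SE 0.35, adjusted p in limma 0.376) and by -0.05 at E13.5 (SE 0.35), while *Ranbp17* on the far side of *Gabrp* had -0.14 and 0.02 (SE 0.16) and *Lcp2*, beyond *Kcnmb1*, -0.18 and 0.10 (SE 0.21). Beside *Kcnh7*, in the order E11.5 and E13.5, *Gca* had -0.48 and -0.08 (SE 0.14) and *Fign* -0.35 and -0.09 (SE 0.22). Of the second genes away, *Ifih1* had -0.22 and 0.07 (SE 0.23) and *Grb14* -0.47 and -0.40 (SE 0.10), the latter with an averaged adjusted p of 0.0109. Beside *Kcnj3*, *Galnt13* had -0.27 and -0.17 (SE 0.16), *Nr4a2* -0.15 and -0.14 (SE 0.14), *Gpd2* -0.18 and -0.14 (SE 0.12) and *Rprm* 0.16 and -0.27 (SE 0.23).

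By stage in control hearts, 0 of 18 partners were called lower and 4 higher (*Abcc8*, *Chrm2*, *Dpp6* and *Fxyd1*), against 12.5% and 16.7% of all probe sets naming one gene. In mutant hearts 3 were called lower (*Hcn4*, *Lrrc26* and *Lrrc55*) and 4 higher (*Abcc8*, *Atp1b3*, *Chrm2* and *Fxyd1*), against 12.7% and 17.2%. *Chrm2* rose by 1.28 in control hearts (adjusted p in limma 0.000101) and by 1.15 in mutant hearts (0.000238). *Hcn4*, the main pacemaker channel gene, differed by 0.40 in mutant hearts at E11.5 (SE 0.13, adjusted p 0.306) and 0.06 at E13.5.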
